A study of Mus musculus with 4 samples.

Results

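The genes described here are 10 genes of serine synthesis, one-carbon metabolism and the ATF4 stress response, measured in mouse liver tumors in which p53 had been switched back on or kept off. They were chosen by name, with earlier results of these data known (Phgdh, Psat1, Psph, Shmt1, Shmt2, Mthfd2, Asns, Trib3, Ddit3 and Atf4). All 10 were measured, among 18193 genes with a probe set of exactly 1 gene symbol, and they were covered by 26 of the 45037 probe sets on the array that are not controls. The tumors came from transplanted LPCs (liver progenitor cells, precursors of hepatocytes and of the bile duct lining) growing orthotopically, that is, in the liver of the host. HrasV12, an oncogenic form of RAS, drove them. Their p53 was silenced by shp53, a short hairpin RNA under tet-off control, which is made only while doxycycline is absent. In the 2 p53 on samples the mice had received doxycycline chow for 8 days, so that the hairpin was switched off and p53 was restored. The 2 p53 off samples come from mice at 0 days of doxycycline, with the hairpin still made and p53 suppressed. All 4 samples share the RAS driver and the hairpin. The labels do not give the genotype, strain, sex or age of the recipient mice, nor the number of LPC lines, and do not say that replicates are separate tumors, so the spread behind the p-values is that among these samples and may be technical. No sample had doxycycline without the hairpin, so effects of p53, of doxycycline and of 8 days of time cannot be told apart.

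Cells make serine from an intermediate of glycolysis in a chain of enzymes formed by Phgdh, Psat1 and Psph. The serine hydroxymethyltransferases Shmt1 (cytosol) and Shmt2 (mitochondria) then turn serine into glycine and pass its side carbon to folate, where Mthfd2 and its relatives process it for the synthesis of purines, thymidylate and methionine. ATF4 is a transcription factor whose translation increases when kinases phosphorylate the initiation factor eIF2alpha, under shortage of amino acids, stress of the endoplasmic reticulum (ER) or other stresses. It activates many of these enzymes, Asns, and the stress genes Trib3 and Ddit3. Arrays measure mRNA, so they do not show how much ATF4 protein was made.

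ATF4 binds, often with a C/EBP partner, to the C/EBP-ATF response element (CARE). The promoters below are shown because they are those of the 10 genes that hold such letters, and each runs 5′ to 3′ from 250 bases before to 50 after the annotated start of the gene (RefSeq, GRCm38.p6). Capitals mark matches to TGATGNAA, the core of the element, or to TGGTGCAAT, a variant of it that was chosen after the sequences had been read; both were searched on both strands.
Asns (chr6:7693160-7693459, minus strand): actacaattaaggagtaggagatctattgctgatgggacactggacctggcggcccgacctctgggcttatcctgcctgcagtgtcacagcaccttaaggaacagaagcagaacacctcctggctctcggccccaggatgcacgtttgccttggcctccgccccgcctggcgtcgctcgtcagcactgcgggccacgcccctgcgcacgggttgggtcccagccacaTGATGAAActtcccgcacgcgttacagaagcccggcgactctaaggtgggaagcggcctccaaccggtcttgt
Trib3 (chr2:152344011-152344310, minus strand): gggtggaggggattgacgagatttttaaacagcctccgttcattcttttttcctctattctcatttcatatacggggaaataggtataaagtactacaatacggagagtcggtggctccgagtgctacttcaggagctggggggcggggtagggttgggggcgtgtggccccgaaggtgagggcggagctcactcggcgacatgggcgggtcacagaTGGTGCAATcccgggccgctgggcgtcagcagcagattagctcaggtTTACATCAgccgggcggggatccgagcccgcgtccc
Psat1 (chr19:15925010-15925309, minus strand): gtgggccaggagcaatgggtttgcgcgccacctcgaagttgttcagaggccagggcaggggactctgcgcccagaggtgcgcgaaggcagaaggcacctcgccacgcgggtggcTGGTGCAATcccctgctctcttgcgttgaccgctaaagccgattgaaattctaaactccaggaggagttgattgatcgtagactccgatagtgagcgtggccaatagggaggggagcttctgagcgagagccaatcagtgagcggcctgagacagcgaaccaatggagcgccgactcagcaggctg

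In Asns the match TGATGAAA began 23 bases before the start site. Trib3 held TGGTGCAAT from 33 bases before the start and, on the other strand, TGATGTAA from position 15 after it. Psat1 has 2 windows in the table; in the one printed TGGTGCAAT began 136 bases before its start, and the other (chr19:15924573-15924872, minus strand) held 0 matches. TGATGNAA occurred in 3.97% of all 32851 promoter windows and TGGTGCAAT in 0.0883%. All 10 genes had a window in the table. TGATGNAA was in those of 2, against 4.51% of all 27025 genes, and TGGTGCAAT in those of 2, against 0.107%. TGGTGCAAT was chosen after these sequences had been read, so its count does not test enrichment. The ER stress response element, searched by its consensus letters and present in 0.119% of windows and 0.137% of genes, was in those of 0 of the 10. A match is a description of the letters and does not show binding, and ATF4 sites further away were not searched.

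The arrays correlated across genes with r = 0.9931 within p53 on and 0.9969 within p53 off, and with 0.9652 to 0.9716 between the groups (genes are not independent replicates). The gene that the hairpin targets was not analysed here. Cdkn1a, the p53 target that encodes p21, was higher in p53 on by 1.44 ± 0.10 on the log2 scale. Mdm2, planned with it as a check of the labels, is not reported here. The difference between 3' and 5' probe sets of beta-actin, a sign of RNA quality, was 0.478 and 0.492 in p53 on and 0.395 and 0.262 in p53 off. It moved with the groups, and its part in the results was not tested. Precision is limited by the number of arrays.

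In p53 on, the serine synthesis enzymes, Shmt2, Mthfd2 and Asns were lower, the stress gene Ddit3 was higher, and Atf4, Trib3 and the brightest probe set of Shmt1 did not pass the test. With 1 probe set per gene, 7 of the 10 genes were called, against 28.7% of all genes tested: 6 fell, against 14.7% of all genes, and 1 rose, against 14.0% of all genes (limma, adjusted p under 0.05 over all genes). The median difference of the 10 was -0.51 on the log2 scale, against 0.02 over all genes. As the 10 were chosen with earlier results of these data known, these comparisons with all genes are descriptions and not tests. The values of the groups did not overlap for any of the 10: 8 were lower and 2 higher in both p53 on arrays, which held for 30.4% and 36.3% of all genes (66.7% in either direction). In bulk tumor samples fewer cells of a type and less RNA per cell cannot be told apart, and markers of tumor, growing and host cells moved between the groups as well; their values follow the gene groups.

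**Figure D1:**
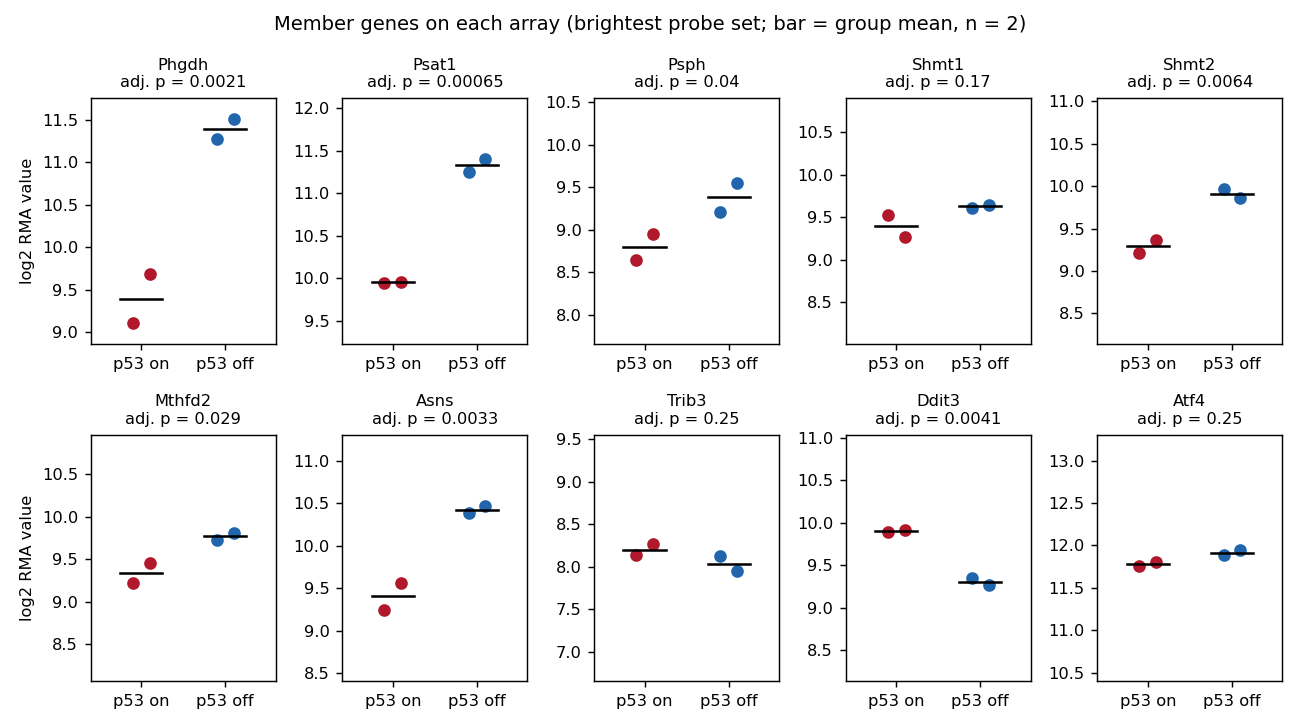
Log2 RMA values of the 10 genes (1 panel each, brightest probe set) on the 2 p53 on arrays (red, left) and the 2 p53 off arrays (blue, right); within a group the left point is replicate 1, bars are group means (n = 2), and every vertical axis spans the same range. The widest gap is that of Phgdh, at 9.10 and 9.68 in p53 on against 11.28 and 11.51 in p53 off, and Ddit3 is the called gene that lies higher in p53 on.

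Phgdh, the enzyme that commits the glycolytic intermediate to serine, had log2 values of 9.10 and 9.68 in p53 on, against 11.28 and 11.51 in p53 off. Both p53 on arrays lay below both p53 off arrays, and the difference was -2.0 ± 0.20 (SE, n = 2 against 2; 4.0-fold lower; limma adjusted p = 0.00208). Its 4 probe sets all fell, but by different amounts. Probe set 1437621_x_at had 8.15 and 8.24 in p53 on against 12.15 and 12.31 in p53 off, a 16.4-fold lower value (-4.03 ± 0.09). Probe set 1454714_x_at was 15.5-fold lower (-3.96 ± 0.17) and 1456584_x_at 5.35-fold lower (-2.42 ± 0.10). The size of the fall of Phgdh therefore depends on the probe set by more than its standard error, while the direction does not; the mean of the 4 changed by -3.10. All 4 carry the suffix that marks possible cross-hybridization to related transcripts. Another 2 probe sets, which the annotation assigns to Phgdh and a predicted gene alike and which are not among the 26, differed by -4.68 (Gm8096 or Phgdh) and -3.83 (Gm6756 or Phgdh).

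Psat1, the transaminase that follows Phgdh, had 9.94 and 9.96 in p53 on and 11.25 and 11.40 in p53 off. The replicates of p53 on were 0.0143 apart, and the fall was 2.60-fold (-1.38 ± 0.08; limma adjusted p = 0.000645). Its other probe set gave nearly the same size, at -1.40 ± 0.12.

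Psph, the phosphatase that releases serine at the end of the chain, had 8.65 and 8.95 in p53 on and 9.21 and 9.55 in p53 off. The groups did not overlap, but replicates differed by 0.30 or more in each, and the fall of 1.5-fold (-0.59 ± 0.15) passed at a limma adjusted p = 0.0403. This call was lost without p53 on replicate 1 (adjusted p = 0.0886; 0.0144 to 0.19 in all alternatives), without p53 off replicate 2 (0.19) and with arrays scaled to spike-in controls (0.0574). Psph has only 1 probe set.

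The mitochondrial enzyme Shmt2 had 9.22 and 9.37 in p53 on and 9.96 and 9.86 in p53 off. It fell 1.53-fold (-0.62 ± 0.09; limma adjusted p = 0.00644). Of its 4 probe sets 2 fell; the other 2 differed by -0.52 ± 0.26 and -0.23 ± 0.10 without passing. In the first of these, p53 on replicate 2 (7.11) lay well below p53 on replicate 1 (7.91).

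For Shmt1, the cytosolic counterpart, the probe sets split. The brightest had 9.53 and 9.27 in p53 on and 9.61 and 9.64 in p53 off, a difference of -0.23 ± 0.11 that did not pass (limma adjusted p = 0.175; 95% interval -0.50 to 0.04). The other 3 fell, by 1.46-fold (1425178_s_at, -0.55 ± 0.07), 2.02-fold (1425179_at, -1.01 ± 0.09) and 1.53-fold (1422198_a_at, -0.62 ± 0.16). For the probe set with the largest of these falls, the values were 6.99 and 6.91 in p53 on and 8.04 and 7.89 in p53 off. The mean over all 4 was called, at -0.60 (adjusted p = 0.0029), as was the brightest one without p53 on replicate 1 (-0.36, adjusted p = 0.0372); the lowest and highest adjusted p of all alternatives were 0.0029 and 0.526.

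Mthfd2, the mitochondrial folate dehydrogenase that takes up the carbon unit released by Shmt2, had 9.22 and 9.45 in p53 on and 9.73 and 9.82 in p53 off. It fell 1.35-fold (-0.44 ± 0.10; limma adjusted p = 0.0291), and its second probe set fell 1.90-fold (-0.93 ± 0.17), with 6.80 and 7.27 in p53 on against 7.86 and 8.07 in p53 off. The call of the first was lost without p53 on replicate 1 (adjusted p = 0.064), p53 off replicate 1 (0.0893) or p53 off replicate 2 (0.165), and with spike-in scaling (0.0771); it ran from 0.00998 to 0.165 over the alternatives.

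Asns, which makes asparagine from aspartate and glutamine, had 9.25 and 9.56 in p53 on and 10.38 and 10.47 in p53 off. Both of its probe sets fell, by 2.03-fold (-1.02 ± 0.12; limma adjusted p = 0.00329) and by 2.46-fold (-1.30 ± 0.15). Together with Phgdh and Psat1 it is 1 of the 3 genes of the 10 that were called and at least 2-fold lower, a size reached by 2.55% of all genes; 0 of the 10 were called and at least 2-fold higher (2.73% of all genes).

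The transcription factor gene Atf4 had 11.76 and 11.80 in p53 on and 11.88 and 11.95 in p53 off. The groups did not overlap, but the difference of -0.13 ± 0.07 did not pass (limma adjusted p = 0.248; 95% interval -0.32 to 0.05). The other 2 probe sets, at -0.06 ± 0.07 and -0.11 ± 0.10, did not pass either. The interval therefore includes a fall of Atf4 mRNA of up to 0.32 on the log2 scale. Its relation to the falls of Asns, Psat1 and Phgdh was not tested.

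In the stress branch, Ddit3 rose and Trib3 was not called. Ddit3, which encodes CHOP, a transcription factor linked to cell death under prolonged ER stress, had 9.89 and 9.92 in p53 on and 9.35 and 9.26 in p53 off. It rose 1.52-fold (0.60 ± 0.08; limma adjusted p = 0.00405), and its second probe set rose as well (0.48 ± 0.08), with 8.34 and 8.25 in p53 on against 7.78 and 7.85 in p53 off. Trib3, which encodes a pseudokinase that acts as a brake on ATF4, had 8.14 and 8.27 in p53 on and 8.12 and 7.95 in p53 off. The nearest values of the groups were 0.02 apart, and the difference of 0.17 ± 0.10 did not pass (limma adjusted p = 0.252; 95% interval -0.07 to 0.41), nor did that of its second probe set (0.09 ± 0.08). Asns and Trib3, whose promoters above both hold TGATGNAA, thus differed in their values: the first fell and the second was not called.

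**Figure D2:**
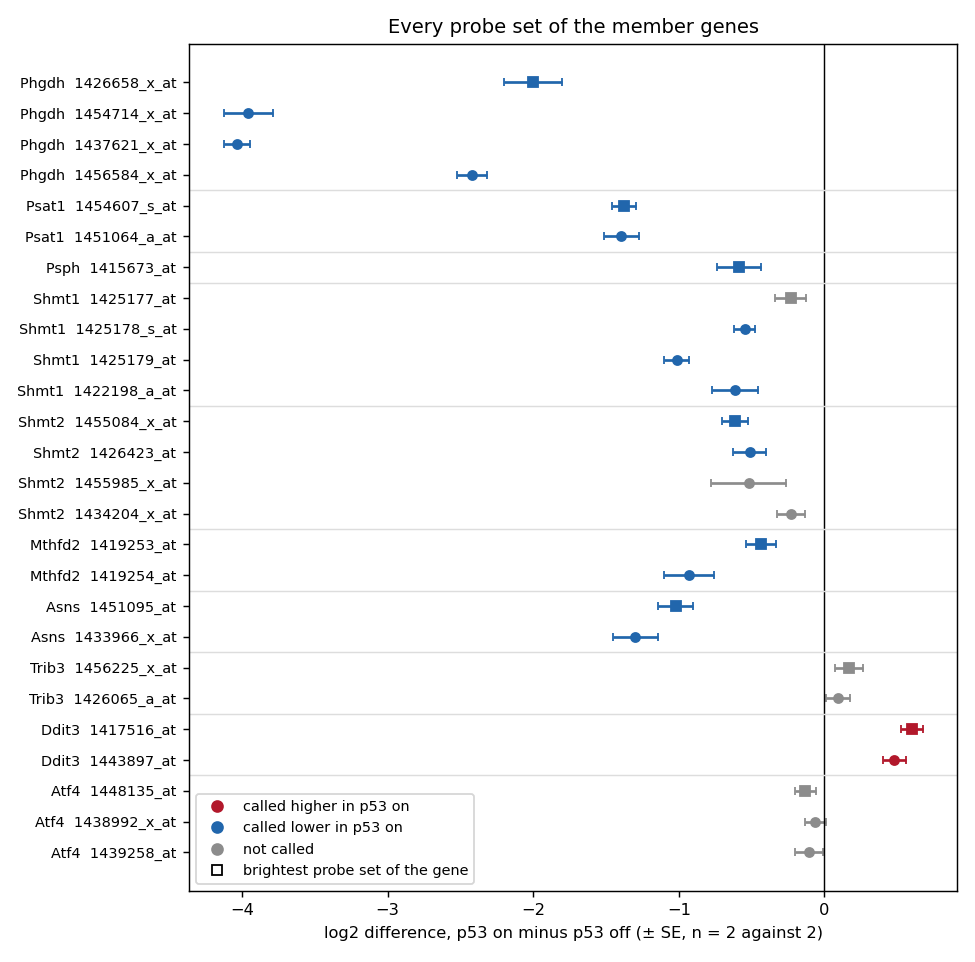
Log2 difference of p53 on minus p53 off for each of the 26 probe sets (± SE, n = 2 against 2), with the brightest probe set of a gene as a square and adjusted p over all probe sets. The 4 Phgdh probe sets range from -4.03 to -2.0, 3 of 4 for Shmt1 are called lower, both for Ddit3 are called higher, and those of Trib3 and Atf4 are not called.

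Taking every probe set on its own, 16 of 26 fell, against 11.5% of all probe sets, and 2 rose, against 11.3% (limma, adjusted over all probe sets). The 16 belong to Phgdh, Psat1, Psph, Shmt1, Shmt2, Mthfd2 and Asns, and the 2 to Ddit3. No gene had probe sets called in both directions. Within groups the 10 genes differed by 0.01 to 0.58 between the p53 on replicates and by 0.03 to 0.34 between the p53 off replicates. Replicate 2 was the higher one for 9 of the 10 genes in p53 on, Shmt1 being the exception, compared with 60.2% of all genes. In p53 off it was the higher one for 7 of the 10, compared with 48.0% of all genes. The largest gaps in p53 on were those of Phgdh, Asns and Psph.

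Among the enzymes around the folate cycle, 10 of 18 measured genes fell, against 14.7% of all genes. In the same list 0 rose, against 14.0%, and the median was -0.40. Ggh, which removes glutamate tails from folates, had 9.85 and 9.76 in p53 on against 10.79 and 10.98 in p53 off (-1.08 ± 0.09). Mthfd2l, the close relative of Mthfd2, changed by -0.92 ± 0.10, and Gart, a trifunctional enzyme of purine synthesis that uses folate, by -0.88 ± 0.09. The count was 5 without p53 off replicate 1 and 4 without p53 off replicate 2. With arrays scaled to spike-in controls it was 7, and 2 genes rose.

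Genes of glycine and serine breakdown, the methionine cycle and transsulfuration fell in 4 of 16 cases and rose in 1, against 14.7% and 14.0% of all genes (median -0.02, but 0.11 with spike-in scaling). Gldc, the decarboxylase of the mitochondrial glycine cleavage system, had 8.37 and 8.46 in p53 on against 10.31 and 10.56 in p53 off (-2.02 ± 0.11, limma adjusted p = 0.00051). Its partner Gcsh, the carrier protein of the same system, changed by -0.99 ± 0.08. Cth, which makes cysteine from cystathionine, had 5.74 and 5.60 in p53 on against 7.46 and 7.33 in p53 off (-1.72 ± 0.09). Ahcy, which clears the product of methylation reactions, changed by -1.08 ± 0.09. The 1 gene that rose was Sardh, a mitochondrial sarcosine dehydrogenase that feeds folate (0.56 ± 0.07).

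The cytosolic aminoacyl-tRNA synthetases, many of which ATF4 activates, fell in 15 of 19 cases, against 14.7% of all genes. They rose in 0, against 14.0%, and their median was -0.53. The falls ran from -0.37 for Lars to -0.89 ± 0.09 for Gars, the glycine enzyme, which had 10.96 and 11.12 in p53 on against 11.86 and 11.99 in p53 off. Cars, the cysteine enzyme, and Rars, the arginine enzyme, changed by -0.83 ± 0.15 and -0.79 ± 0.10. The other 4, Nars, Sars, Wars and Yars, differed by -0.03 to -0.32 without passing. The count was 10 without p53 off replicate 1 and 5 without p53 off replicate 2, where the call of Cars was lost (adjusted p = 0.0621; range 0.00489 to 0.0621). All 19 differences were below 0 in the fit of 1 probe set per gene.

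Other ATF4 targets split. Of 23 measured genes 8 rose (34.8%, against 14.0% of all genes) and 5 fell (21.7%, against 14.7%), and the median was 0.09. Gpt2, a mitochondrial alanine transaminase, had 9.01 and 8.89 in p53 on against 7.87 and 7.91 in p53 off (1.06 ± 0.08). The size of that rise depends on the probe set: the brightest one without a mark of likely cross-hybridization differed by 0.0033 and the mean of its probe sets by 0.49 (for the first, adjusted p = 0.988; 0.000309 to 0.988 in all alternatives). Herpud1, a component of ER-associated degradation, rose by 0.81 ± 0.09. Ddit4, an inhibitor of mTORC1 that p53 also activates, rose by 0.62 ± 0.12. Its call was lost without p53 off replicate 2, although its smallest rise over the alternatives was 0.50. Besides Cth, which is also in the list above, Nupr1, a small stress-induced chromatin protein gene, changed by -1.12 ± 0.10, and Vegfa, an angiogenic factor, by -1.07 ± 0.17. The call of Vegfa was also lost without p53 off replicate 2 (adjusted p = 0.0568; range 0.00109 to 0.0568). Leaving out p53 off replicate 1 and then replicate 2 instead, the list counted 3 and 2 genes higher and 5 and 3 lower, and after centring by array medians 5 higher and 8 lower.

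Of 12 amino acid transporters 2 were higher (16.7%, against 14.0% of all genes) and 4 lower (33.3%, against 14.7%). Their median was -0.01, but 0.12 with spike-in scaling and 0.01 when probe sets were averaged. Slc7a1, a carrier of arginine and lysine, had 10.94 and 10.98 in p53 on against 11.88 and 11.93 in p53 off (-0.95 ± 0.07). Slc38a1, a glutamine carrier, and Slc1a4, which carries alanine, serine and cysteine, changed by -0.71 ± 0.12 and -0.59 ± 0.11. Slc36a4 and Slc43a1 rose by 0.64 ± 0.07 and 0.52 ± 0.10. Without p53 off replicate 1, and likewise without replicate 2, the lower count was 2 in each case, and the call of Slc1a4 was lost (adjusted p = 0.0698 and 0.0725; range 0.00341 to 0.0725). Slc43a1 lost its call without p53 off replicate 2 (adjusted p = 0.0992; range 0.00758 to 0.0992), where the higher count was 1.

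Of the 4 eIF2alpha kinases, which act upstream of ATF4, Eif2ak3 (PERK, the sensor of ER stress) rose by 0.35 ± 0.07 and Eif2ak1 (HRI, a sensor of heme shortage) by 0.30 ± 0.08. Eif2ak2 (PKR) and Eif2ak4 (GCN2, the sensor of uncharged tRNA) differed by 0.05 ± 0.07 and -0.21 ± 0.10 without passing. Both rises were lost without either p53 off array (adjusted p from 0.0801 to 0.214), without p53 on replicate 2 (0.0546 for Eif2ak3 and 0.0857 for Eif2ak1) and when probe sets were averaged, at 0.14 for Eif2ak3 and 0.07 for Eif2ak1. Eif2ak1 was also lost without p53 on replicate 1 (0.0706), with centring on the array median and with trend and robust eBayes. The adjusted p ran from 0.00892 to 0.179 for Eif2ak3 and from 0.0144 to 0.484 for Eif2ak1 over the alternatives. The activity of these kinases was not measured.

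ER chaperones and genes of the other arms of the unfolded protein response mostly did not pass the test. Of 20 genes 4 fell (20%, against 14.7% of all genes) and 2 rose (10%, against 14.0%). The median was -0.10 (0.03 with spike-in scaling). Without p53 off replicate 2, 3 fell and 0 rose. Hspa5, the main ER chaperone, had 13.40 and 13.34 in p53 on and 13.57 and 13.50 in p53 off, and was not called (-0.17 ± 0.08; limma adjusted p = 0.168). The largest falls were those of Creld2 (-0.73 ± 0.08), Ero1a, an ER oxidase (-0.63 ± 0.08), and Manf (-0.58 ± 0.07), both Creld2 and Manf being proteins induced by ER stress. Atf6, an ER stress sensor, rose by 0.58 ± 0.11 in its brightest probe set but was at 0.09 when its probe sets were averaged (adjusted p = 0.549; range 0.00512 to 0.549), and its call was also lost without p53 off replicate 2 (0.0962). Sel1l, of ER-associated degradation, rose by 0.27 ± 0.07, a call lost without each of the 4 arrays in turn (adjusted p from 0.0693 to 0.189; 0.0134 to 0.199 in all alternatives) and in some of the others.

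**Figure D3:**
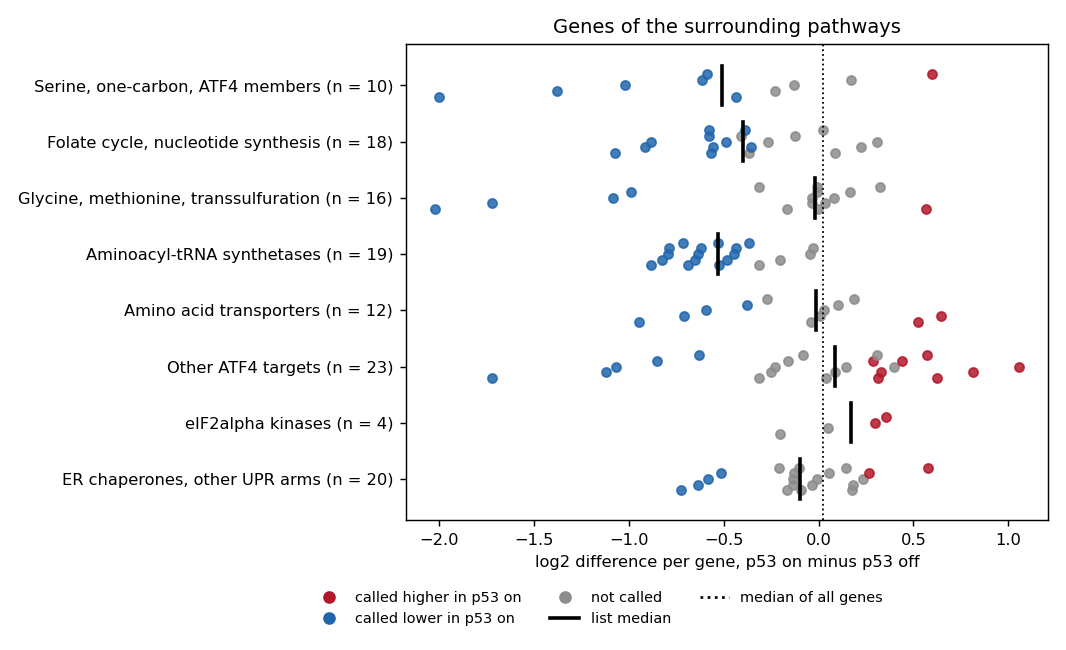
Log2 difference of p53 on minus p53 off for each measured gene (1 point each) of the 10 genes and of 7 lists around them, coloured by call, with list medians as bars and the median of all genes (0.02) as a dotted line. Calls lie on the lower side for the folate cycle and the tRNA synthetases, and on both sides for other ATF4 targets and amino acid transporters. Over all genes 14.7% were called lower and 14.0% higher.

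Genes that mark cell types and growth also moved between the groups. For comparison, 14.7% of all genes fell and 14.0% rose. Of 9 proliferation markers 9 fell (5 without p53 off replicate 2; median -0.86), and their mean log2 value was 9.82 and 9.87 in p53 on and 10.72 and 10.86 in p53 off. Of 9 progenitor and epithelial markers 5 fell and 1 (Epcam) rose (median -1.04; mean value 9.67 and 9.33 in p53 on and 10.27 and 10.38 in p53 off). The call of Epcam (0.52 ± 0.07) was lost when probe sets marked for cross-hybridization were left out, at 0.16 (adjusted p = 0.196), and without p53 off replicate 2 (0.0514; range 0.00254 to 0.196). Krt8, a keratin of these cells, had 12.73 and 12.64 in p53 on and 13.93 and 14.17 in p53 off. Host cell markers were higher: 8 of 12 for macrophages (mean value 10.50 and 10.38 in p53 on, 9.84 and 9.92 in p53 off), 8 of 10 for endothelium (9.02 and 9.32 in p53 on, 8.62 and 8.53 in p53 off), and 9 of 10 for fibroblasts and stellate cells (12.28 and 12.33 in p53 on, 11.45 and 11.16 in p53 off). Without p53 off replicate 2 these 3 counts were 6, 3 and 4, and without p53 off replicate 1 they were 7, 4 and 7. Csf1r, for example, rose by 1.16 ± 0.10, whereas the endothelial gene Lyve1 fell (-0.69 ± 0.14), but was not called without p53 off replicate 1 (adjusted p = 0.0748; range 0.00479 to 0.0748). Of 8 T and NK cell markers 2 rose (mean value 7.49 and 7.70 in p53 on, 7.18 and 7.11 in p53 off), against 1 without p53 off replicate 1 and 0 without p53 off replicate 2. Of 8 hepatocyte markers 1, Hnf4a, fell and 0 rose; without p53 on replicate 1, 1 rose, and without p53 on replicate 2, 2 rose. Albumin (Alb), which defines hepatocytes, was dim in both groups, with 7.39 and 6.96 in p53 on and 7.07 and 7.06 in p53 off, where the array medians ran from 7.29 to 7.39. The part of these shifts in the values of the serine, one-carbon and ATF4 genes was not tested.

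**Figure D4:**
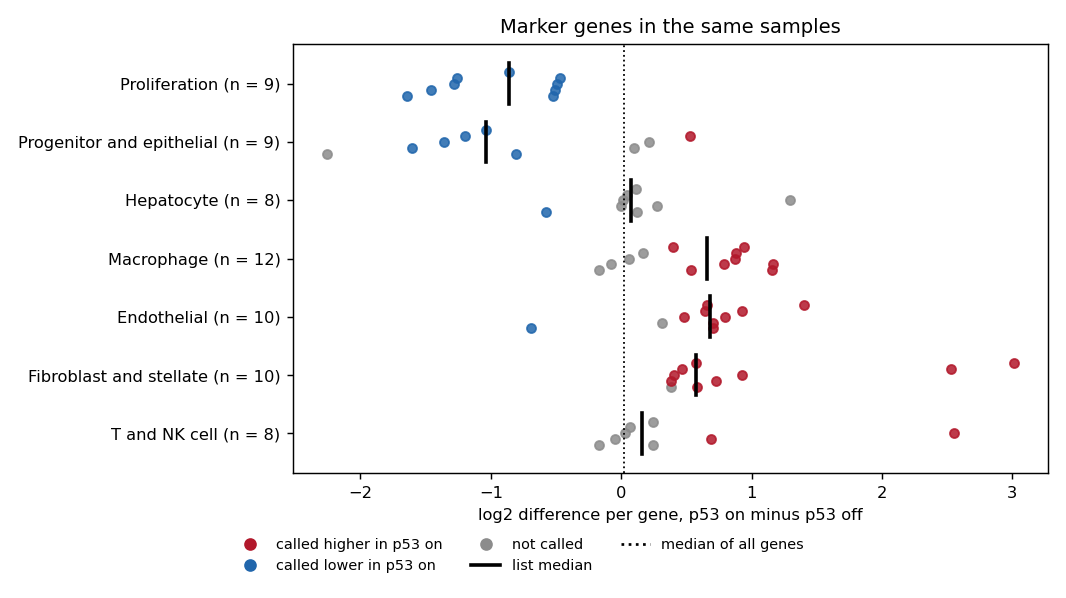
Log2 difference of p53 on minus p53 off for each measured marker gene (1 point each) of 7 cell type or growth lists in the same samples, coloured by call, with list medians as bars. All 9 proliferation markers are called lower (5 of 9 without p53 off replicate 2). Called higher are 8 of 12 macrophage, 8 of 10 endothelial and 9 of 10 fibroblast markers (6, 3 and 4 without p53 off replicate 2).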

How the data were processed

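Total RNA was extracted with Trizol from 4 liver tumor samples and hybridized as biotin-labelled RNA to 1 Affymetrix mouse array each. The authors deposited log2 values for each probe set and array, made with RMA (background correction, quantile normalization and summarisation of probes), per the submitters' processing notes, which list limma 3.14.4 too. No source used here names their build or annotation. There is no detection call, and changes of dim probe sets can be compressed.

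Groups came from the sample titles. Of 45101 probe sets, 64 were controls, 34945 carried exactly 1 gene symbol in the platform annotation, 932 several and 9160 none. For each gene the brightest such probe set over the 4 arrays was used, for 18193 genes and without a filter on dim values. A second fit took all 45037 probe sets other than controls. Both were fitted with lmFit and eBayes (limma 3.58.1, R 4.3.3) for the difference of p53 on minus p53 off, with no replicate block (gene fit: 2 residual degrees of freedom, 5.47 after moderation). Benjamini-Hochberg adjustment covered each whole table, with calls at an adjusted p under 0.05. An exact permutation test over 2 against 2 arrays cannot give a two-sided p under 0.333, so none was used.

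The 10 genes and all gene lists (203 genes, 186 measured) were chosen with earlier results of these data known. The genes named from a list were mainly its up to 3 largest rises and 3 largest falls among called genes, and every eIF2alpha kinase. Hspa5, Lars and the synthetases that were not called were named outside this rule. Gcsh and the marker genes given with values other than Csf1r were named after their values were seen. Alternatives were the replicate number as a block, quantile normalization, centring on the array median, scaling to 18 spike-in control probe sets, leaving out the lowest 40% of genes, other choices of probe set, trend and robust eBayes, array weights and leaving out each array. A crossed replicate block was added after the data were seen. It is not part of the ranges over alternatives given for genes other than the 10. Python 3.11.15 with matplotlib 3.10.9 made the figures, and promoter windows came from RefSeq.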

Additional observations from a re-analysis of the deposited data

How the results depend on the processing

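Phgdh, Psat1, Shmt2 and Asns (lower) and Ddit3 (higher) kept their direction and call in all 15 alternatives, and Trib3 and Atf4 were called in none of them. No gene of the 10 changed sign. The alternatives that ended or added a call were named in the text for Psph, Mthfd2 and Shmt1; the crossed replicate block, chosen after the data were seen, also ended those of Psph (adjusted p = 0.118) and Mthfd2 (0.0771), with the changes themselves the same by construction. Of the 10 genes, 4 to 7 were called lower over all alternatives, and 1 higher in each. Of the 26 probe sets, 18 were called, and 12 to 18 over the alternatives. Replicate numbers were shared between the groups, but the labels do not say that they pair the samples. Deviations of the same number correlated with r = -0.154 across genes. With 2 arrays per group this value cannot settle whether the samples were paired. With the replicate block 6 of the 10 genes were called lower and 4323 genes in all, and with the crossed block 4 and 3954. The crossed block also left 9 tRNA synthetases called lower, against 15, and 7 folate cycle genes, against 10. Endothelial markers called higher numbered 6 with it, against 8, while macrophage markers stayed at 8. With the replicate block 5 other ATF4 targets were called higher, against 8, and 0 of 4 eIF2alpha kinases, against 2 (adjusted p = 0.0503 for Eif2ak3 and 0.0751 for Eif2ak1), and Sel1l lost its call (0.0895). Over all genes 5223 were called, and 2228 to 5055 when 1 array was left out, the lowest without p53 off replicate 2 (3259 without p53 off replicate 1). Folate cycle genes called lower numbered 4 to 12 and other ATF4 targets called lower 3 to 6 when 1 array was left out, against 10 and 5. Centring each array on its median gave 8 other ATF4 targets called lower. The cause was not tested; the fits without an array have fewer samples. The share of calls that were higher was 48.8%, against 37.9% with arrays centred on their median and 70.0% with spike-in scaling, which moved the median of all genes to 0.15, against 0.02. With 2 arrays per group and no detection call, small changes of dim probe sets could be missed.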

Other observations

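The liver identity markers Afp and Cyp2e1 differed more between the p53 on samples than between the groups. Afp, which encodes alpha-fetoprotein, had 8.47 and 5.33 in p53 on against 9.16 and 9.15 in p53 off. It was not called (-2.25 ± 0.95, limma adjusted p = 0.14), but was called when either p53 on array was left out. Cyp2e1, a cytochrome of mature hepatocytes, had 9.71 and 7.39 in p53 on against 7.27 and 7.24 in p53 off (1.29 ± 0.70; limma adjusted p = 0.236), and was called without p53 on replicate 2 (0.000156). Gzma, a granzyme of T and NK cells, had 10.58 and 12.05 in p53 on against 9.06 and 8.45 in p53 off (2.55 ± 0.49; limma adjusted p = 0.0146). That call was lost without p53 off replicate 2 (adjusted p = 0.0915; range 0.00048 to 0.0915) and with trend and robust eBayes. In the same pair of p53 on arrays Phgdh was 0.58 apart, the largest gap among the 10 genes. These 3 markers were named after their values were seen.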
